A study of Vitis vinifera with 24 samples.

Results

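The transcriptome response of Sauvignon blanc berries to soil nitrogen was examined at ripeness in 2014, 35 days after mid-veraison (v + 35). The 6 libraries of this comparison, of 24 in the series, were chosen by their labels: 3 libraries from the soil N100 treatment and 3 from the control. Soil N100 vines (*Vitis vinifera*, clone 108 grafted on 161-49 C, Bordeaux) had 100 U of nitrogen per hectare added to the soil in 2 applications, at bud break and at flowering. Control vines, of the same clone, rootstock and plot, were not fertilized. The plots had been picked for a low nitrogen status in earlier years and were irrigated to avoid water deficit. RNA was taken from whole berries, so skin, flesh and seed were sampled together. The study describes the 3 libraries of each group as biological replicates, and the p-values measure only the spread between such libraries. In bulk RNA of this kind, fewer cells of a type and less RNA per cell cannot be told apart. Berries of (v + 28) in 2014, and of (v + 35) in 2013 from another clone on another rootstock, serve here only to show where (v + 35) in 2014 differs.

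Vines take up nitrogen mainly as nitrate, which is reduced by nitrate reductase and nitrite reductase and built into glutamine and glutamate before amino acids are moved to the berry. Ripening grape berries also accumulate pathogenesis-related (PR) proteins, among them osmotins, thaumatins, chitinases and beta-1,3-glucanases, which act against fungi and remain in the juice. SPX proteins sense the phosphate status of the cell, which in Arabidopsis is coupled to nitrate supply.

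Expression was given as RPKM, a read count divided by gene length and by library size. The log2 fold change (LFC) is the difference between soil N100 and control in mean log2(RPKM + 0.5), so it understates changes of genes with low expression. The files name genes by the V1 annotation of the 12X grapevine assembly and hold no coordinates or sequences, and the descriptions used below are those of the study's gene tables, which follow the best match in Arabidopsis in most cases. The 6 libraries held 48.7 M to 80 M reads in genes (M, mega), with the deepest in the control group (replicate 2), and the 10 most abundant genes of a library took 11.1 to 12.5% of its reads.

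Markers of ripe flesh and skin and of seed were both expressed in every library, though no other tissue was there for comparison. Those of flesh and skin include osmotin, thaumatin and chitinase genes that are examined below. The 13 markers of ripe flesh and skin summed to 17000, 19200 and 18200 RPKM in soil N100 replicates 1 to 3, against 17400, 15200 and 16100 RPKM in control replicates 1 to 3. Metallothionein 3 (*VIT_19s0014g02740*), a small metal-binding protein typical of ripe grape berries, was among the 10 most abundant genes, at 9250, 11700 and 9930 RPKM in soil N100 and 8160 to 10600 RPKM in the control. The 15 seed markers (oleosins, storage proteins, late embryogenesis abundant proteins and the seed regulators AGL62 and PEI1) summed to 343, 411 and 471 RPKM in soil N100, against 535, 252 and 534 RPKM in the control. No marker of either list was at 0 in all 6 libraries. The control group thus held both the highest seed sums and the lowest one, that of replicate 2.

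The control libraries differed from each other more than the soil N100 libraries did. Across the 17171 genes tested, Pearson correlations between soil N100 libraries were 0.993, 0.996 and 0.994, whereas control replicates 1 and 2 correlated at 0.970, replicates 1 and 3 at 0.98 and replicates 2 and 3 at 0.985. Control replicate 2 correlated at 0.995 with soil N100 replicate 1, more closely than with any library of its own group. The median SD of a gene within the group was 0.101 on the log2 scale for soil N100 and 0.17 for the control (n = 3 each). Control replicate 1 held 66 genes at least 4-fold above every other library of 2014 on the log2(RPKM + 0.5) scale. Soil N100 replicate 3 held 1 such gene, and the other 4 libraries held 0.

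With limma on log2(RPKM + 0.5), a single gene was up-regulated in soil N100 berries and 0 genes were down-regulated. A call needed a limma p not above 0.05 after Benjamini-Hochberg adjustment over the 17171 genes whose mean reached 0.5 RPKM, together with an LFC of 0.6 or more in size. The 1 call was 0.00582% of the genes tested. With the p-value left unadjusted and that fold kept, soil N100 was higher for 34 genes (0.198%) and lower for 63 (0.367%). Regardless of fold, 652 genes (3.8% of those tested) had an unadjusted p of 0.05 or below. Limma-voom on the recovered reads called 0 genes after adjustment, with 60 higher and 81 lower before it. The study, which used DESeq2, lists 21 genes for (v + 35) in 2014 from these samples, so the number of calls differed with the test. The median LFC of all genes was -0.01, and their 5th and 95th percentiles were -0.27 and 0.23. Rescaling the libraries by median ratios left the same single call and 34 higher and 62 lower genes before adjustment, all of them among those found without the rescaling.

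**Figure D1:**
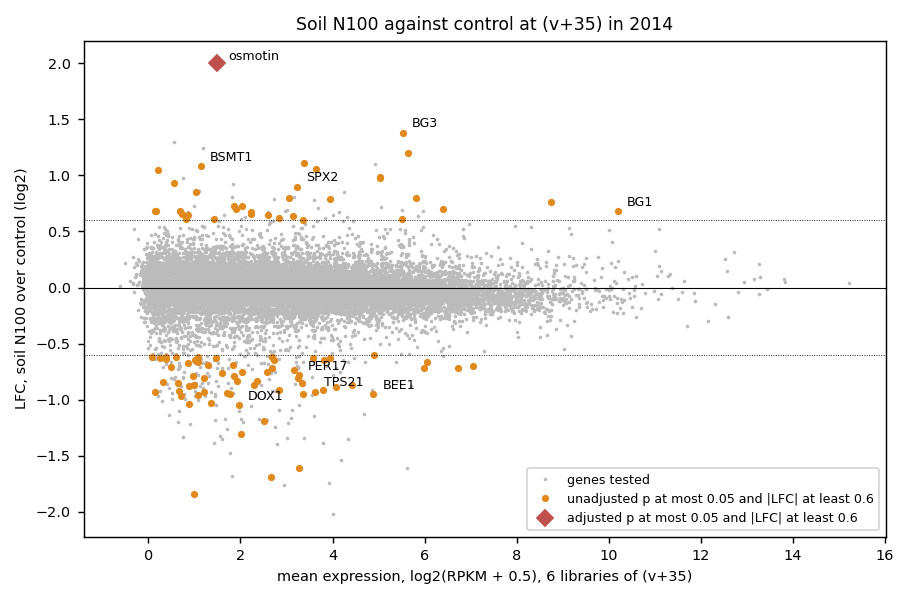
LFC of soil N100 over control (vertical axis, log2) against mean expression over the 6 libraries (horizontal axis, log2(RPKM + 0.5)) for 17171 genes at (v + 35) in 2014, with 1 point per gene. Dotted lines mark an LFC of 0.6 in size, orange points the 34 higher and 63 lower genes before adjustment, and the red diamond the osmotin gene at an LFC of 2.00, the only call after adjustment.

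The up-regulated gene was *VIT_02s0025g04270*, described as osmotin 34, an antifungal PR-5 protein of the thaumatin family. Its expression was 5.63, 3.91 and 2.62 RPKM in soil N100 replicates 1 to 3, against 0.639, 0.734 and 0.430 RPKM in the control. The lowest soil N100 library lay above the highest control library. These values rested on 337, 193 and 123 reads in soil N100 and on 33, 57 and 20 reads in the control. The LFC was 2.00 ± 0.23 (SE, n = 3 per group, adjusted p = 0.0399 with limma). The call was lost on omitting any one control library, soil N100 replicate 1 or soil N100 replicate 2 (adjusted p between 0.0566 and 0.349), while the LFC stayed between 1.76 and 2.25. It was also lost when the 6 libraries were fitted without those of (v + 28) (adjusted p = 0.511) and with limma-voom (LFC 2.70, adjusted p = 0.101).

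The gene belongs to a group of neighbouring IDs with the same description, and the authors counted only uniquely aligned reads, so reads shared with a near-identical copy could be missing from all of them. *VIT_02s0025g04250* was at 70.1, 36.1 and 25.5 RPKM in soil N100, against 26.3, 19.1 and 15.8 RPKM in the control, and here the groups overlapped (LFC 0.99 ± 0.30, adjusted p = 0.989). Soil N100 replicate 1 stood highest for both genes, and without it the LFC of *VIT_02s0025g04250* was 0.59, against 1.31 without soil N100 replicate 3. *VIT_02s0025g04310*, by far the most abundant gene with this description, was at 1370, 1040 and 1240 RPKM in soil N100, against 1040, 1000 and 723 RPKM in the control (LFC 0.41 ± 0.16, adjusted p = 0.989, and 0.24 without control replicate 3). The nearby ID *VIT_02s0025g04330*, without a description, was far more abundant, at 8530, 9290 and 10100 RPKM in soil N100. It was at 9360, 8360 and 8610 RPKM in the control, so the groups overlapped (LFC 0.08 ± 0.13). *VIT_02s0025g04280* had an LFC of 0.33 ± 0.23 and also overlapped between the groups, with 0.17 without control replicate 2, 0.21 without soil N100 replicate 3 and 0.56 without soil N100 replicate 2. The putative thaumatin *VIT_04s0023g03550* was at 48.9, 60.0 and 51.5 RPKM in soil N100, whereas control replicate 2 (58.8 RPKM) lay among these values and control replicates 1 and 3 (22.2 and 26.8 RPKM) far below them. Its LFC of 0.69 was 1.11 without control replicate 2 and 0.42 without control replicate 1.

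Summed over the 7 genes described as osmotin or thaumatin, expression was 1550, 1200 and 1370 RPKM in soil N100, against 1120, 1140 and 802 RPKM in the control, and the groups did not overlap. Most of this sum was *VIT_02s0025g04310*, at 1370, 1040 and 1240 RPKM in soil N100, against 1040, 1000 and 723 RPKM in the control. The sum leaves out the ID without a description, *VIT_02s0025g04330*, which alone was at 8360 to 10100 RPKM and overlapped between the groups. All 6 members tested had a positive LFC, with a median of 0.59, where 46.6% of all genes tested had one and the median was -0.01. Among the described genes not listed for 2014 it was 353 of 546, with a median of 0.09. Only *VIT_02s0025g04270* passed the test, and 2 members were higher before adjustment. The study lists 4 of the 7 genes for 2014 from these samples, and the 3 others had a median of 0.49 with 0 calls. Leaving out control replicate 2 raised the median of the list to 0.90.

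The PR-1, PR-4, chitinase and beta-1,3-glucanase genes held no call in 10 members tested, and 3 were higher before adjustment. The strongest was BG3 (*VIT_08s0007g06060*), a beta-1,3-glucanase that cleaves fungal wall glucan, at 99.8, 51.9 and 49.2 RPKM in soil N100, against 26.7, 27.2 and 18.9 RPKM in the control. The lowest soil N100 value exceeded every control value, and replicate 1 stood out by the widest margin (LFC 1.38 ± 0.26, adjusted p = 0.461, and 1.06 without that replicate). BG1 (*VIT_08s0007g06040*), its far more abundant relative, was at 1630, 1200 and 1470 RPKM in soil N100, against 981, 1060 and 681 RPKM in the control (LFC 0.68 ± 0.17, adjusted p = 0.900). PR1 (*VIT_03s0088g00810*), a marker of salicylate-dependent defence, was low, at 1.15, 0.927 and 1.08 RPKM in soil N100, against 0.257, 0.342 and 0.156 RPKM in the control (LFC 1.05 ± 0.27, adjusted p = 0.941). These libraries did not overlap for either gene. PR4 (*VIT_14s0081g00030*), a chitin-binding protein, reached 852, 640 and 552 RPKM in soil N100 and 512, 489 and 445 RPKM in the control (LFC 0.48 ± 0.19, adjusted p = 0.989, and 0.30 without soil N100 replicate 1). The acidic endochitinase CHIB1 (*VIT_16s0050g02220*) was at 3.21, 1.39 and 0.977 RPKM in soil N100, against 1.14, 0.888 and 1.03 RPKM in the control, where only soil N100 replicate 3 fell within the range of the control (LFC 0.52 ± 0.26, and 0.14 without soil N100 replicate 1, 0.81 without soil N100 replicate 3).

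As a group these genes summed to 8780, 8120 and 8970 RPKM in soil N100, against 7380, 7430 and 5790 RPKM in the control, without overlap. Most of this sum was 1 chitinase (*VIT_05s0094g00350*), at 6070, 6130 and 6820 RPKM in soil N100, against 5750, 5780 and 4570 RPKM in the control (LFC 0.25 ± 0.17, and 0.14 without control replicate 3). The median LFC of the list was 0.42, and 0.26 without soil N100 replicate 1. It was 0.11 over the 4 tested members that the study does not list for 2014, of which 2 had a positive and 2 a negative LFC. Among these, the basic chitinase *VIT_03s0038g03400* was at 36.4 RPKM in control replicate 1, against 2.34 to 6.4 RPKM in the other 5 libraries, and its LFC of -0.47 turned to 0.74 without that library.

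Regulators linked to salicylate, none of which the study lists for 2014, had a positive LFC in 7 of 7 genes tested (median 0.58, and 0.31 without soil N100 replicate 1), but none passed the test. A positive LFC was found for 46.6% of all genes tested (median -0.01). Among the described genes not listed for 2014 it was 353 of 546 (median 0.09). The study picked the described genes for a nitrogen response in its samples, so this list is no independent evidence. BSMT1 (*VIT_04s0023g02280*), which in Arabidopsis methylates benzoic and salicylic acid, was at 2.88, 2.61 and 1.99 RPKM in soil N100, against 0.666, 1.23 and 0.890 RPKM in the control. Its libraries did not overlap, and it ranked 7th by p among all genes (LFC 1.08 ± 0.20, adjusted p = 0.461). NIMIN-2 (*VIT_01s0011g03440*), whose Arabidopsis counterpart binds the salicylate co-regulator NPR1, was at 91.1, 63.3 and 57.6 RPKM in soil N100, against 56.1, 43.7 and 46.8 RPKM in the control (LFC 0.51 ± 0.19). A second NIMIN-2 gene (*VIT_17s0000g03780*, LFC 0.41 ± 0.16) and DMR6 (*VIT_16s0098g00860*, LFC 0.62 ± 0.29), an oxidoreductase that lowers salicylate in Arabidopsis, overlapped between the groups. Soil N100 replicate 1 was the highest of the 6 libraries for each of the last 3 genes, and without it the LFC was 0.31 for *VIT_01s0011g03440* and 0.36 for DMR6.

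**Figure D2:**
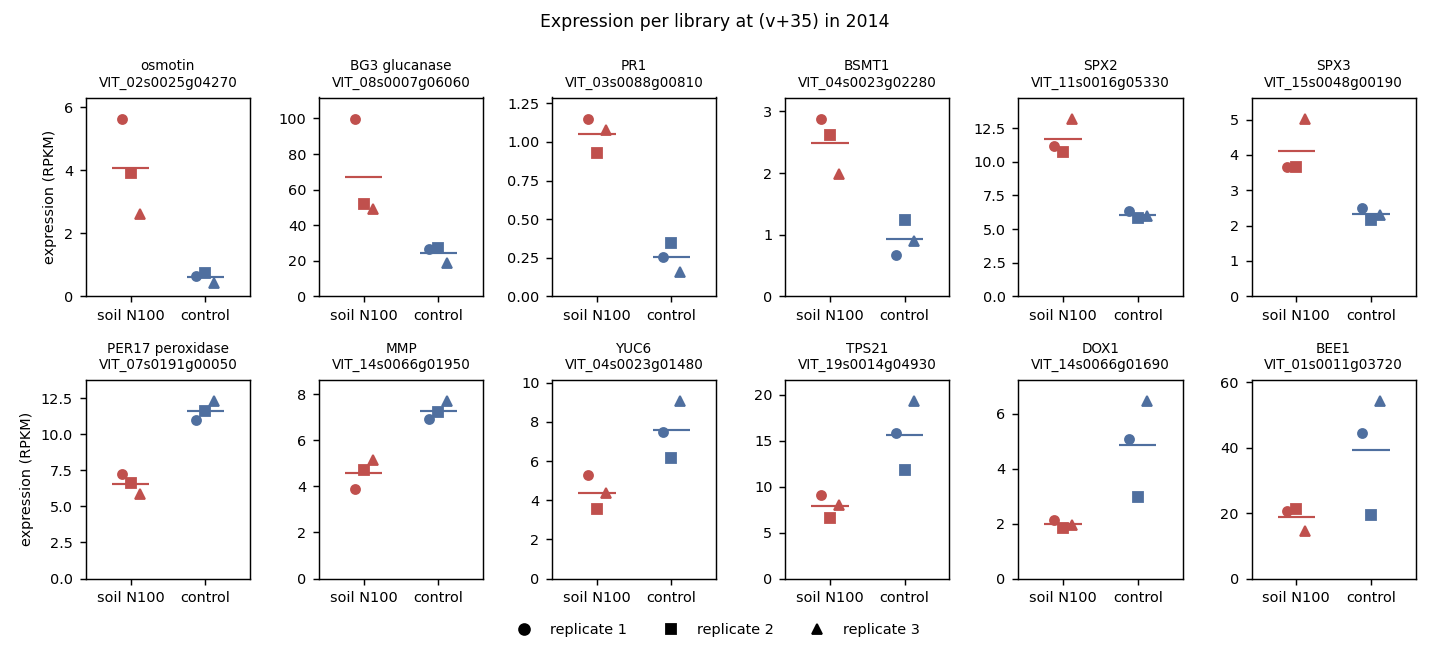
Expression (RPKM, vertical axes from 0) of 12 genes in each library of (v + 35) in 2014, soil N100 on the left and control on the right. Symbols mark replicates 1 to 3 and bars the group means. The osmotin gene, BG3, PR1, BSMT1, SPX2 and SPX3 lay higher and PER17, MMP, YUC6, TPS21 and DOX1 lower in all 3 soil N100 libraries, whereas control replicate 2 of BEE1 (19.4 RPKM) fell among the soil N100 values (14.4 to 21.3 RPKM).

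Genes tied to phosphate status were represented by 5 members, of which none was called and 2 were higher before adjustment. SPX2 (*VIT_11s0016g05330*) was at 11.2, 10.7 and 13.2 RPKM in soil N100, against 6.37, 5.81 and 5.94 RPKM in the control (LFC 0.90 ± 0.15, adjusted p = 0.252). SPX3 (*VIT_15s0048g00190*) was at 3.66, 3.67 and 5.02 RPKM in soil N100, against 2.50, 2.16 and 2.30 RPKM in the control (LFC 0.70 ± 0.13, adjusted p = 0.461). Both had tight groups without overlap and kept an LFC of 0.81 to 0.96 and of 0.56 to 0.77 when single libraries were left out, though the study lists both for 2014 from these samples. PHO2 (*VIT_00s0265g00070*), which in Arabidopsis marks phosphate transporters for degradation, tended the other way, with 18.3, 16.3 and 20.7 RPKM in soil N100, against 24.7, 31.5 and 19.6 RPKM in the control (LFC -0.42 ± 0.16, adjusted p = 0.989). Its groups overlapped, and without control replicate 2 its LFC was -0.25. The glycerophosphodiester phosphodiesterase SRG3 (*VIT_14s0068g01500*) was at 47.5 to 58.2 RPKM in soil N100, inside the range of the control (25.8 to 71.2 RPKM), and its LFC of 0.49 ran between 0.22 and 0.95 with single control libraries left out. The median of the list was 0.49, and 0.74 without control replicate 1, 0.30 without control replicate 3.

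Nitrogen assimilation itself gave no call. None of the 6 genes of nitrogen and amino acid metabolism tested was called, before or after adjustment. Their median LFC was -0.09, with 3 positive and 3 negative values. NIR1 (*VIT_03s0063g00370*), the nitrite reductase that serves as an indicator of nitrate supply, was at 38.6, 40.6 and 38.1 RPKM in soil N100, against 33.2, 30.9 and 27.0 RPKM in the control. The groups did not overlap, yet the difference stayed below the fold used here (LFC 0.36 ± 0.13, adjusted p = 0.989). NADH glutamate synthase (*VIT_16s0098g00290*, LFC 0.22 ± 0.20) and the asparagine synthase ASN1 (*VIT_06s0004g06830*, LFC 0.16 ± 0.17) overlapped between the groups. These genes and NIR1 were the positive members. A putative proline oxidase (*VIT_14s0083g00520*) was lower without overlap, at 6.29, 8.1 and 8.24 RPKM in soil N100, against 11.7, 8.89 and 9.64 RPKM in the control (LFC -0.39 ± 0.14). Methionine adenosyltransferase 3 (*VIT_08s0007g05000*, LFC -0.34 ± 0.24) overlapped. The largest LFC of the list, -1.32 ± 0.62 for a putative diaminopimelate decarboxylase (*VIT_18s0001g00740*), an enzyme of lysine synthesis, came from control replicate 1 at 9.96 RPKM. The other control libraries were at 1.15 and 1.2 RPKM and soil N100 at 0.617, 0.584 and 1.05 RPKM, and without control replicate 1 the LFC was -0.44.

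Of the 10 nitrate, peptide and amino acid transporters tested, 8 had a positive LFC (median 0.19), 1 was higher and 1 lower before adjustment, and none was called. A positive LFC was found for 46.6% of all genes tested and for 353 of 546 described genes not listed for 2014. An amino acid transporter (*VIT_13s0019g04660*) was at 4.68, 6.4 and 4.67 RPKM in soil N100, against 3.42, 3.61 and 2.36 RPKM in the control (LFC 0.67 ± 0.19). A putative amino acid permease (*VIT_03s0038g02140*) ran in the opposite direction without overlap, at 2.90, 1.69 and 2.15 RPKM in soil N100, against 3.8, 4.5 and 3.36 RPKM in the control (LFC -0.69 ± 0.19). Both had an adjusted p of 0.989. A nitrate transporter described as ATNRT1:2 (*VIT_01s0026g01570*) was at 32.7, 53.2 and 36.9 RPKM in soil N100 and within reach of them at 38.2, 35.4 and 24.6 RPKM in the control (LFC 0.31 ± 0.22, and 0.11 without soil N100 replicate 2, 0.12 without control replicate 3). The regulators LBD38 (*VIT_03s0091g00670*, LFC 0.31 ± 0.15), which represses nitrate-responsive genes in Arabidopsis, and BT4 (*VIT_07s0129g00210*, LFC 0.18 ± 0.14) overlapped between the groups, and the 7 LBD and BTB genes tested had a median of 0.06.

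Genes of the photosystems and of chlorophyll synthesis, which also serve as markers of green tissue, showed a small and broad difference. Summed over 33 genes, expression was 876, 963 and 1060 RPKM in soil N100, against 852, 843 and 713 RPKM in the control, so the groups did not overlap but the nearest libraries were close. A positive LFC was found for 31 of the 32 genes tested, where it was found for 46.6% of all genes, and the median was 0.24 (0.17 to 0.33 with single libraries left out). Among the described genes not listed for 2014, 353 of 546 had a positive LFC, with a median of 0.09. None of the 32 photosystem and chlorophyll genes reached the fold with p, before or after adjustment. Of these, 6 had libraries that did not overlap, all higher in soil N100. Over all genes, non-overlapping libraries were found for 464 genes higher (2.7%) and 743 lower (4.33%) in soil N100. The photosystem I subunit PSAD-2 (*VIT_05s0020g03180*) was at 46.2, 50.6 and 57.1 RPKM in soil N100, against 41.4, 43.7 and 34.6 RPKM in the control (LFC 0.36 ± 0.13, adjusted p = 0.989). Plastocyanin-like DRT112 (*VIT_18s0001g00760*), an electron carrier, had an LFC of 0.29 ± 0.10 and phosphoribulokinase (*VIT_02s0109g00080*), a Calvin cycle enzyme, of 0.46 ± 0.19. The study lists none of these genes for 2014. They have descriptions because the study picked them for a nitrogen response in its samples, so the list is no independent evidence.

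**Figure D3:**
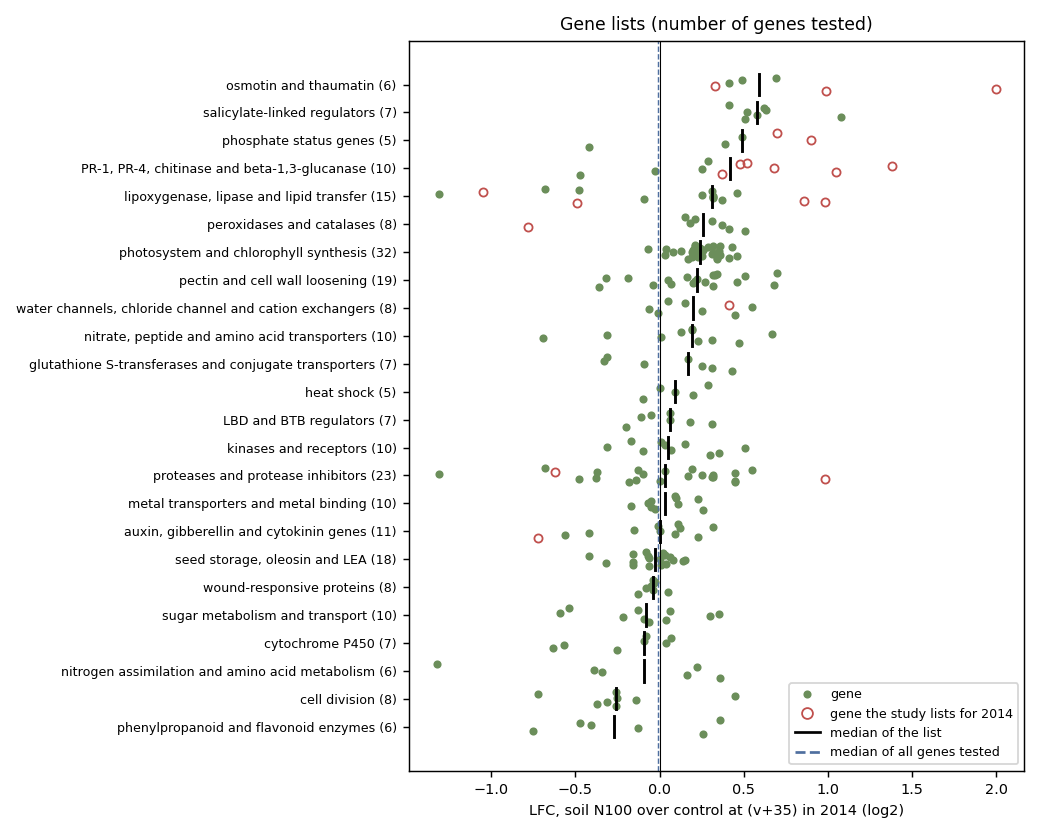
LFC of soil N100 over control at (v + 35) in 2014 (horizontal axis, log2) for the members of the 24 gene lists with at least 5 genes tested, sorted by the median of the list (black bars). Filled points are genes, open red circles genes that the study lists for 2014 from these samples, and the dashed line is the median of all genes tested (-0.01). Osmotin and thaumatin genes (median 0.59) stand at the top and phenylpropanoid and flavonoid enzymes (median -0.27) at the bottom.

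Genes of cell wall loosening and of water and ion channels gave no call. As background, 46.6% of all genes tested had a positive LFC, and 353 of 546 described genes not listed for 2014 did. Libraries did not overlap for 2.7% of all genes tested on the higher side and 4.33% on the lower side. Of 19 genes for pectin and cell wall loosening, 15 had a positive LFC (median 0.22), and only a pectate lyase (*VIT_17s0000g09810*), which cuts pectin in softening berries, passed before adjustment. It was at 77.4, 125 and 107 RPKM in soil N100, against 58.4, 90.6 and 45.6 RPKM in the control, where control replicate 2 lay among the soil N100 libraries (LFC 0.70 ± 0.31). Among 8 water channels, chloride channels and cation exchangers, 6 had a positive and 2 a negative LFC (median 0.20), and 2 did not overlap. Of these 2, the tonoplast water channel GAMMA-TIP (*VIT_08s0007g04780*) was at 282, 318 and 281 RPKM in soil N100, against 186, 243 and 176 RPKM in the control (LFC 0.55 ± 0.14, adjusted p = 0.900). The potassium transporter KUP6 (*VIT_01s0026g00270*) also did not overlap, at 9.40, 10.1 and 10.1 RPKM in soil N100, against 6.02, 9.14 and 6.44 RPKM in the control (LFC 0.45 ± 0.13). For each of these 3 genes the nearest control library was replicate 2.

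Glutathione S-transferases, the enzyme family that couples glutathione to the aldehyde from which a thiol aroma precursor is made, gave no call. Of the 7 tested genes that have a description, which are only part of the family, 4 had a positive and 3 a negative LFC, with a median of 0.17. GSTU7 (*VIT_06s0004g05680*) was at 43.7, 55.9 and 50.8 RPKM in soil N100, against 47.2, 38.4 and 35.3 RPKM in the control (LFC 0.31 ± 0.19), and GSTU10 (*VIT_01s0026g02400*) had an LFC of 0.43 ± 0.37 with overlapping groups (0.08 without soil N100 replicate 1, 0.83 without soil N100 replicate 3). GSTU25 (*VIT_19s0015g02690*) pointed down (LFC -0.31 ± 0.27). The Tau 8 gene *VIT_16s0039g01070* was at 45.5 RPKM in control replicate 1, against 6.51 to 18.5 RPKM in the other 5 libraries, and its LFC of -0.33 turned to 0.56 without that library. The conjugate transporter MRP3 (*VIT_01s0010g02440*), listed by the study for 2014, was at 0.369, 0.170 and 0.205 RPKM in soil N100, against 0.181, 0.177 and 0.0871 RPKM in the control, and fell below the filter on expression.

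Before adjustment, 63 genes were lower in soil N100, and 21 of them have a description. Control replicate 3 was the highest of the 6 libraries for 42 of these 63 genes, control replicate 1 for 17 and control replicate 2 for 4. The most uniform was MMP (*VIT_14s0066g01950*), a matrix metalloproteinase of the cell wall space, at 3.90, 4.70 and 5.13 RPKM in soil N100, against 6.90, 7.22 and 7.70 RPKM in the control (LFC -0.62 ± 0.10, adjusted p = 0.252). Peroxidase 17 (*VIT_07s0191g00050*) was at 7.23, 6.64 and 5.86 RPKM in soil N100, against 11, 11.6 and 12.3 RPKM in the control (LFC -0.78 ± 0.16, adjusted p = 0.577). In both genes the groups were tight and did not overlap, and the LFC kept between -0.70 and -0.52 and between -0.85 and -0.71 when single libraries were left out. The other 7 described peroxidases and catalases tested all had a positive LFC, with a median of 0.31. Among the described genes not listed for 2014, 353 of 546 had one, with a median of 0.09.

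YUC6 (*VIT_04s0023g01480*), a flavin monooxygenase of auxin synthesis, was at 5.27, 3.54 and 4.37 RPKM in soil N100, against 7.5, 6.15 and 9.07 RPKM in the control (LFC -0.72 ± 0.18, adjusted p = 0.801). It was the single member of 11 auxin, gibberellin and cytokinin genes to pass before adjustment, and the median of that list was 0. Both terpene synthases tested were lower without overlap. *VIT_19s0014g04930*, described as TPS21, which makes beta-caryophyllene in Arabidopsis, was at 9.07, 6.59 and 8.01 RPKM in soil N100, against 15.8, 11.8 and 19.3 RPKM in the control (LFC -0.93 ± 0.24, adjusted p = 0.900). Its relative *VIT_18s0001g04780* was at 0.506, 0.535 and 0.562 RPKM in soil N100, against 1.07, 0.904 and 0.997 RPKM in the control (LFC -0.53 ± 0.14). The fatty acid dioxygenase DOX1 (*VIT_14s0066g01690*) was at 2.14, 1.85 and 1.95 RPKM in soil N100, against 5.10, 2.98 and 6.47 RPKM in the control (LFC -1.05 ± 0.37, adjusted p = 0.989).

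YUC6, the terpene synthases and DOX1 all had their lowest control value in replicate 2. With single libraries left out, the LFC ran between -0.85 and -0.59 for YUC6 and between -1.33 and -0.83 for DOX1. For *VIT_19s0014g04930* it ran between -1.11 and -0.76, and for *VIT_18s0001g04780* between -0.57 and -0.49. A further set of lower genes also had its lowest control value in replicate 2. The brassinosteroid-responsive factor BEE1 (*VIT_01s0011g03720*) was at 20.6, 21.3 and 14.4 RPKM in soil N100, against 44.4, 19.4 and 54.3 RPKM in the control, and the groups overlapped (LFC -0.95 ± 0.34, and -1.39 without control replicate 2). MYB24 (*VIT_14s0066g01090*), a transcription factor, was at 112, 85.0 and 97.7 RPKM in soil N100, against 159, 115 and 220 RPKM in the control (LFC -0.70 ± 0.25). The kinesin ATK2 (*VIT_12s0028g00670*), a spindle motor, was at 81.2, 77.4 and 77.5 RPKM in soil N100, against 133, 97.1 and 168 RPKM in the control (LFC -0.72 ± 0.23). VEP1 (*VIT_05s0077g01300*, LFC -0.85 ± 0.22) and a hydrolase (*VIT_07s0005g02420*, LFC -0.81 ± 0.25) likewise had their lowest control value there. So did EXL2 (*VIT_07s0005g00870*, LFC -0.83 ± 0.42, and -0.51 without control replicate 3), which did not pass before adjustment. Control replicate 2 was also the library with the lowest sum of seed markers (252 RPKM, against 343 to 535 RPKM in the others). The part of seed in these values was not tested. Of the 18 seed storage, oleosin and LEA genes tested, 9 had a positive and 9 a negative LFC (median -0.03) and none was called.

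Leaving out control replicate 2 changed the picture most. It gave 129 higher and 218 lower genes before adjustment, among them 31 of the 34 and 58 of the 63 found with all libraries, but still 0 calls after it. Leaving out any other single library gave 39 to 64 higher and 49 to 81 lower genes. Several large negative LFC rested instead on control replicate 1. Besides the diaminopimelate decarboxylase, laccase 14 (*VIT_18s0117g00590*) was at 6.07 RPKM in control replicate 1, against 0.0484 to 0.134 RPKM in the other 5 libraries, and its LFC of -1.10 turned to 0.07 without that library. The ID *VIT_14s0066g01670*, without a description, was at 37.1 RPKM there, against 0.823 to 1.66 RPKM, and its LFC of -1.76 ± 0.94 shrank to -0.34 without that library.

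**Figure D4:**
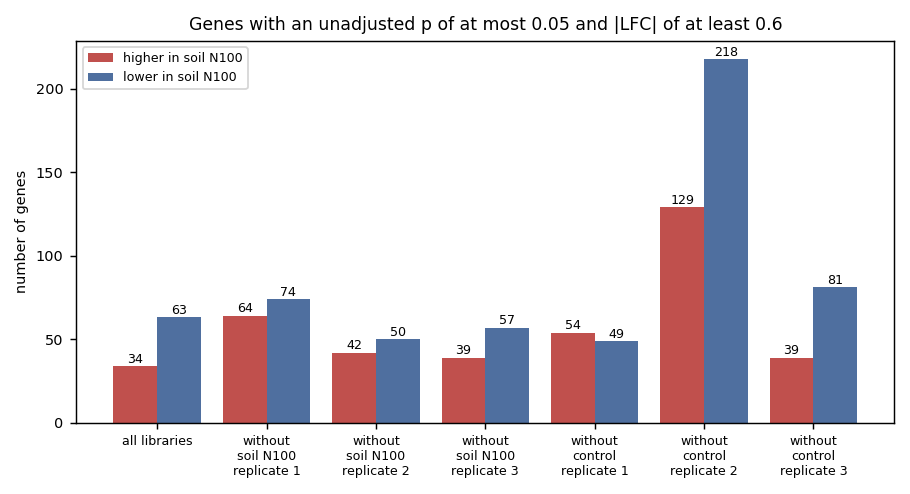
Number of genes (vertical axis from 0) with an unadjusted p not above 0.05 and an LFC of 0.6 or more in size, higher (red) or lower (blue) in soil N100 at (v + 35) in 2014, with all libraries and with each library left out. The counts were 34 and 63 with all libraries and 129 and 218 without control replicate 2, and no other bar exceeds 81.

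The other genes that were higher before adjustment had mixed functions. A gene of unknown function, *VIT_00s0265g00090*, ranked 2nd by p, at 13.1, 14.7 and 13.7 RPKM in soil N100, against 5.79, 6.30 and 6.37 RPKM in the control (LFC 1.11 ± 0.15, adjusted p = 0.134). Another, *VIT_04s0023g01110*, was abundant, at 519, 567 and 526 RPKM in soil N100, against 306, 380 and 273 RPKM in the control (LFC 0.76 ± 0.12, adjusted p = 0.252). A lipid transfer protein (*VIT_02s0154g00300*) was at 43.2, 41.4 and 42.3 RPKM in soil N100, against 24.8, 26.3 and 14.5 RPKM in the control (LFC 0.98 ± 0.28, adjusted p = 0.989). The groups of these 3 genes were well apart, with the soil N100 libraries close together in each. TT10 (*VIT_18s0122g00370*), a laccase that oxidizes flavonoids in Arabidopsis seed coats, was at 9.17, 10.3 and 11.4 RPKM in soil N100, against 5.65, 7.52 and 6.17 RPKM in the control (LFC 0.64 ± 0.19). A DC1 domain protein (*VIT_01s0127g00540*, LFC 0.79 ± 0.18), a protein phosphatase 2C (*VIT_01s0150g00510*, LFC 0.65 ± 0.13) and a SigA-binding protein (*VIT_08s0007g05180*, LFC 0.80 ± 0.27) also did not overlap.

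The study lists 21 genes for (v + 35) in 2014, chosen on these samples by its own test, so their direction is no independent evidence. Of these, 19 passed the filter on expression, and the libraries did not overlap for any of the 19, with 12 higher and 7 lower in soil N100. Their LFC ranged between -1.05 and 2.00. Of the 14 genes tested that it lists for (v + 28) only, 11 had a positive LFC at (v + 35), and 4 were higher and 2 lower without overlap. Of the 546 described genes tested that are not listed for 2014, 353 had a positive LFC, and 61 were higher and 35 lower without overlap. These 546 genes had 7 higher and 13 lower before adjustment and a median LFC of 0.09, beside -0.01 for all genes. Over all genes tested, 46.6% had a positive LFC, and 2.7% were higher and 4.33% lower without overlap.

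The effect at (v + 35) was next set beside that at (v + 28), for which other libraries of the same vines were used. No gene differed between the stages after adjustment (limma, smallest adjusted p = 1), and before it 15 genes had a larger and 13 a smaller LFC at (v + 35). The osmotin *VIT_02s0025g04270* averaged 3.37 RPKM in soil N100 and 0.522 RPKM in the control at (v + 28), with an LFC of 1.92 ± 0.23 (adjusted p = 0.0531), and the difference between the stages was 0.09 ± 0.32. BG3 and PR1 had an LFC of 2.04 ± 0.26 and 1.71 ± 0.27 at (v + 28), with a difference of -0.66 ± 0.37 for BG3 and -0.66 ± 0.39 for PR1. SPX2 and SPX3 had the larger LFC at (v + 35). SPX2 was at 0.27 ± 0.15 at (v + 28), with a difference of 0.63 ± 0.21, and SPX3 at 0.22 ± 0.13, with a difference of 0.48 ± 0.19. Among the genes that the study lists for 2014, the difference was largest, at 2.64 ± 0.55, for a lipid-binding cell wall protein (*VIT_03s0017g02200*). At (v + 28) it was lower in soil N100, with a mean of 0.363 RPKM against 2.44 RPKM in the control (LFC -1.78 ± 0.39). It was at 2.05, 2.22 and 2.03 RPKM in soil N100 at (v + 35), against 1.92, 0.118 and 1.46 RPKM in the control, and without control replicate 2 its LFC at (v + 35) was 0.25 in place of 0.86.

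Of the 34 genes higher before adjustment, 33 had a positive LFC at (v + 28) too, against 38.3% of all genes with a positive LFC at (v + 35). Of the 63 lower ones, 59 had a negative LFC at (v + 28), against 78.9%. Across all 17171 genes the LFC of the 2 stages correlated at 0.20 (Pearson) and 0.29 (Spearman), where the points share the plots and the scaling of each library.

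In 2013, where both the clone and the rootstock differed, the same stage gave 1 up-regulated and 0 down-regulated genes after adjustment and 221 higher and 251 lower before it. For the difference of the LFC between the years, 2014 minus 2013, 0 of 16899 genes were called (smallest adjusted p = 0.185). Before adjustment 211 genes had a larger and 82 a smaller LFC in 2014, but after rescaling by median ratios these counts were 136 and 166. The median LFC of all genes was -0.01 in 2014 and -0.098 in 2013. The osmotin gene had an LFC of 1.68 ± 0.64 in 2013, with a difference between the years of 0.33 ± 0.68. For BG3 the values were 1.98 ± 0.73 and -0.60 ± 0.77, and for BEE1 -1.12 ± 0.38 and 0.17 ± 0.51. SPX2 was at 0.38 ± 0.23 in 2013, with a difference of 0.51 ± 0.27, and NIR1 at 0.52 ± 0.13, with a difference of -0.16 ± 0.18.

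**Figure D5:**
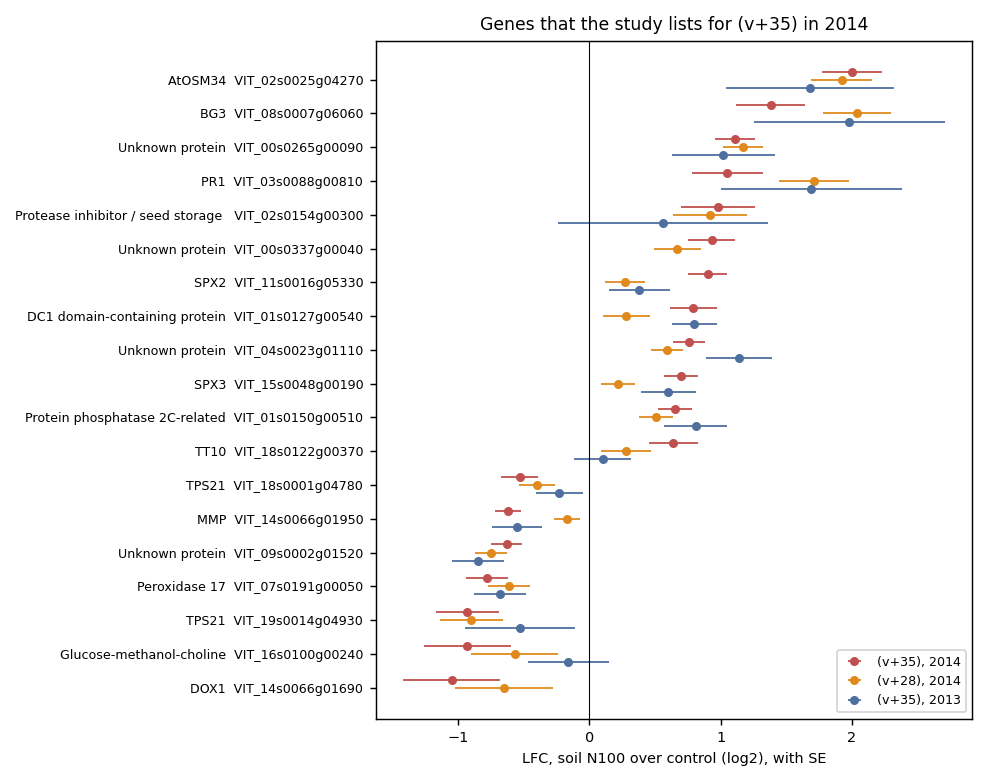
LFC of soil N100 over control (horizontal axis, log2, bars are SE) for the 19 tested genes that the study lists for (v + 35) in 2014, in that comparison (red), at (v + 28) in 2014 (orange) and at (v + 35) in 2013 (blue, where tested). The osmotin gene is at 2.00, 1.92 and 1.68, SPX2 at 0.90, 0.27 and 0.38, and every red and orange point of a gene lies on the same side of 0.

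The genes that differed between soil N100 and control in 2013 before adjustment were followed into 2014. Of the 221 genes that were higher in soil N100 at (v + 35) in 2013 before adjustment, 210 were tested in 2014, where 177 had a positive LFC and the median was 0.27. Among them 14 were higher and 0 lower before adjustment in 2014, and 41 against 3 had libraries that did not overlap. Of the 251 genes lower in 2013, 244 were tested, 154 had a negative LFC and the median was -0.08, with 19 lower and 1 higher before adjustment. Of 656 tested genes that rose with ripening in control vines of 2013, 6 were higher and 18 lower before adjustment in soil N100 in 2014, with 13 higher and 39 lower without overlap and a median of -0.03. Of 746 that fell with ripening there, 5 were higher and 2 lower before adjustment, with 28 higher and 35 lower without overlap and a median of 0.01. For all these lists the shares over all genes tested were 0.198% higher and 0.367% lower before adjustment. Without overlap they were 2.7% higher and 4.33% lower. Of all genes tested in 2014, 46.6% had a positive and 53.4% a negative LFC, with a median of -0.01. Before adjustment, 27 of the 33 higher genes of 2014 that were tested in 2013 had a positive LFC there, against 39.5% of all genes, and 51 of 54 lower ones a negative LFC, against 79.7%. Across 16899 genes the LFC of the 2 years correlated at 0.30 (Pearson) and 0.29 (Spearman).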

How the data were processed

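The authors sequenced mRNA of whole Sauvignon blanc berries. Their tools were CASAVA 1.8.2 for base calling, TopHat2 2.0.10 with Bowtie2 2.1.0 for alignment to the 12X grapevine assembly, and HTSeq 0.5.4p3, which counted uniquely aligned reads over V1 gene models. The deposited values are RPKM per library, for 26123 genes in 2014. Whole reads could be recovered for 100.0% of the genes (tolerance 1e-06 reads), which gave the depths and an added fit with limma-voom.

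In R 4.3.3 with limma 3.58.1, log2(RPKM + 0.5) was fitted for 17171 genes, those whose mean over the 12 libraries of 2014 reached 0.5 RPKM. The fit had 1 mean per group and let the prior variance follow expression. Benjamini-Hochberg adjustment ran over all genes tested. Calls needed an adjusted p not above 0.05 together with an LFC of 0.6 or more in size. The stages were compared by an interaction contrast. The years were fitted apart and their LFC subtracted, with Welch-Satterthwaite degrees of freedom. Replicates entered singly; an exact permutation test of 3 against 3 libraries cannot go below p = 0.1 and was not used. The recovery and the fit were tested on simulated data.

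Named were the called gene, the genes the study lists for 2014, the 12 most positive and 12 most negative LFC without overlap among described genes, the members of each of 27 gene lists with the smallest p, and a few genes without description; others were named after their values were seen. Descriptions cover 648 genes, so a list can hold only part of a gene family, and no ID matched the reference table at hand. The samples compared, the members and the lists were chosen with earlier results of these data known, and most lists draw on genes the study picked from the 2013 or 2014 samples. No gene set test was made. The alternatives were other pseudocounts, filters, scalings and thresholds, a fit without trend, a replicate block, the 6 libraries alone, limma-voom and each library left out.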

Additional observations from a re-analysis of the deposited data

How the results depend on the processing

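The single call at (v + 35), the osmotin gene, remained with a pseudocount of 0.1, a minimum mean of 2 RPKM, median-ratio rescaling, quantile normalization, no trend, no threshold on the fold and an adjusted p of 0.1. It was lost, leaving 0 calls, with a pseudocount of 1, without a filter on low expression, in the 6 libraries alone and with limma-voom (adjusted p 0.0625, 0.14, 0.511 and 0.101), and 0 to 1 genes were called with single libraries left out. Unadjusted p-values with the fold gave 97 genes. Before adjustment the counts were 25 higher and 48 lower genes with a pseudocount of 1, 129 and 218 without control replicate 2, 49 and 92 with a pseudocount of 0.1, 25 and 38 with a minimum mean of 2 RPKM and 60 and 81 with limma-voom. The difference between the stages held 0 calls under each of its 9 alternatives. That between the years held 3 without a filter on low expression and 0 under the other 6. Those 3 genes, named after their values were seen, were *VIT_09s0054g00690*, *VIT_10s0116g00560* and *VIT_19s0027g01810*, each at a mean of 0.0137 to 0.893 RPKM. The nodulin MtN3 gene *VIT_02s0025g02080*, with an LFC of 0.04, turned to -0.13 without soil N100 replicate 3 and to -0.22 without control replicate 2 (range -0.22 to 0.20 with single libraries left out). Without control replicate 1 the negative LFC of the basic chitinase *VIT_03s0038g03400*, the Tau 8 gene *VIT_16s0039g01070*, laccase 14, Phe ammonia lyase 1 and SUS4 turned positive, and the LFC of metallothionein 3 (0.09) turned to -0.01 without soil N100 replicate 2 and to -0.03 without control replicate 2. The cause of these changes was not tested. With a replicate block 1 gene was called, the osmotin (adjusted p = 0.0256), with 38 higher and 64 lower genes before adjustment. The study sampled each treatment in randomized field blocks, but the labels do not say whether same-numbered libraries come from a shared block. Deviations of same-numbered libraries correlated at -0.18, -0.39 and -0.09, and the samples were not taken as pairs. Genes near the filter rest on few reads per library, and 3 libraries per group limit the precision throughout.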

Other observations

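The study's own categories overlap with the lists above, and are given without its genes listed for 2014. Of 34 tested cell wall genes, 28 had a positive LFC (median 0.21), with 1 higher and 0 lower before adjustment. In signalling this was 17 of 23 (median 0.20), and in redox functions 7 of 8 (median 0.29), while 12 of 29 stress genes had a positive LFC (median -0.03), beside 353 of 546 over all described genes not listed for 2014. Differences between categories were not tested. Of 8 cell division genes, 7 had a negative LFC (median -0.26). The DNA primase POLA3 (*VIT_02s0025g01350*), needed to start DNA synthesis, was at 0.834, 0.621 and 0.841 RPKM in soil N100, against 1.05, 1.09 and 1.26 RPKM in the control (LFC -0.37 ± 0.11). The 8 wound-responsive genes lay close together around 0, with an LFC between -0.13 and 0.05. An invertase or pectin methylesterase inhibitor (*VIT_16s0022g00870*) was at 16.2, 16.2 and 17.5 RPKM in soil N100, against 23.8, 20.2 and 30.0 RPKM in the control (LFC -0.54 ± 0.12).

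Some genes that the study lists for 2014 fell below the filter on expression. The osmotin *VIT_02s0025g04230* had 22, 2 and 2 reads in soil N100, against 0, 3 and 0 reads in the control, so 1 library held nearly all of them. The metal transporter NRAMP1 (*VIT_18s0001g02140*) was at 0.241, 0.314 and 0.236 RPKM in soil N100, against 0.709, 0.514 and 0.679 RPKM in the control, and the zinc transporter ZIP1 (*VIT_19s0085g00740*) at 0.393, 0.508 and 0.42 RPKM in soil N100, against 0.103, 0.137 and 0.0654 RPKM in the control. Both sets of libraries were apart.

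Phe ammonia lyase 1 (*VIT_08s0040g01710*), the entry enzyme of phenylpropanoid synthesis, was at 68.5 RPKM in control replicate 1, against 4.19 to 10.4 RPKM in the other 5 libraries. Its LFC of -0.75 turned to 0.39 without that library. The sucrose synthase SUS4 (*VIT_11s0016g00470*) was at 119 RPKM there, against 22 to 35.8 RPKM, and its LFC of -0.59 turned to 0.10. Both genes were picked after their values were seen.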
